A study of Mus musculus with 11 samples.

Results

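The aspartate tRNAs with the anticodon GTC were followed in fibroblasts from mouse embryos, labelled MEF Wt in every group, that express SV40 T antigen. All table rows named AspGTC with a number were taken, which gave 4 of 301 tRNA entries (AspGTC42, AspGTC13, AspGTC21 and AspGTC23). The family was taken up because earlier results of these data had all 4 entries above empty vector with both METTL1 constructs. Those differences are therefore described here without a test.

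The 3 groups of cells had been made by stable transduction, and the labels call the transduced lines clones. One group carried empty vector, a second METTL1-WT+WDR4, that is wild-type METTL1 from a pBabe vector together with WDR4, and the third METTL1-Mut+WDR4, a METTL1 labelled mutant with WDR4. The labels do not say what the mutation is. Per the labels' protocols, which mention empty vector and the wild-type construct, cells were kept in puromycin and G418 but expanded without either. Of the 11 samples of the series, 6 are input libraries used here, 2 for each group. Input RNA is small RNA treated with AlkB enzymes, which strip methyl groups that block reverse transcription, and not cleaved at methylated guanosine. The tables hold tRNA entries only, so neither the METTL1 and WDR4 transgenes nor fibroblast markers were checked here. Nothing in the labels says that replicates were separate cultures, so the spread between them may be technical.

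Aspartate tRNA carries aspartate to the ribosome and reads the codons GAC and GAU. In mammals the isoacceptor with anticodon GTC reads both. Its first anticodon base is replaced by queuosine, as in the tRNAs for asparagine, histidine and tyrosine, and in mouse DNMT2 methylates the cytosine at position 38 in the aspartate tRNA and in glycine and valine tRNAs. METTL1, with its partner WDR4, methylates a guanosine (to N7-methylguanosine, m7G) of certain tRNAs, in their variable loop. Aspartate tRNA is not among those known to carry this mark.

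The RefSeq table of GRCm38.p6, the assembly also called mm10, lists 16 genes named n-TDgtc, the aspartate GTC tRNA genes, each 72 bases long. Of these, 5 lie on chromosome 1 between 171037029 and 171102442, a span of 65.4 kb. Another 3 lie on chromosome 13 between 21911313 and 21940390. The rest are on chromosome 5 (3 genes), chromosomes 10 and 11 (2 each) and chromosome 2 (1 gene). Neither how the 4 entries map to these genes nor how reads that fit several genes were treated is given in the sources used here. Differences between entries are thus differences between table rows whose reads may overlap. For example, AlaTGC35 and AlaCGC10, with different anticodons, had nearly the same log2 differences from empty vector. Both were at −0.159 with METTL1-WT+WDR4 and at −0.093 with METTL1-Mut+WDR4. Whether they share reads was not tested. No tRNA sequences were used here.

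Abundance was given in RPM, reads per 1000000 reads, so every value is a share of the reads summed over tRNA entries. A read counted in several entries would enter that sum more than once. The values do not show whether tRNA as a whole became more or less abundant. In RNA pooled over a culture, a higher level in all cells and a higher level in only some of them cannot be told apart. The values imply 5405585 to 16003708 reads per library. The 2 mutant libraries differed most between replicates, with a median SD per entry of 0.15 on the log2 scale against 0.079 for empty vector and 0.060 for METTL1-WT+WDR4.

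AspGTC42 held most of the aspartate reads. It stood at 6044 and 5633 RPM in empty vector libraries 1 and 2, at 8462 and 9724 RPM with METTL1-WT+WDR4, and at 9734 and 7690 RPM with METTL1-Mut+WDR4. All 4 METTL1 libraries lay above both empty vector libraries, while the 2 constructs overlapped. The mutant replicates were 1.27-fold apart, and counting error (exact Poisson 95% interval) was at most 1.12% to either side in any library. This interval covers counting error only.

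AspGTC13 came next. It was at 881 and 936 RPM in empty vector, 1110 and 1288 RPM with METTL1-WT+WDR4 and 1450 and 1172 RPM with METTL1-Mut+WDR4. Again the empty vector libraries were the lowest, and the highest value was that of mutant library 1.

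AspGTC21 was the entry whose wild-type libraries stood furthest above empty vector. It was at 256 and 260 RPM in empty vector, 526 and 557 RPM with METTL1-WT+WDR4, and 354 and 416 RPM with METTL1-Mut+WDR4. The 3 groups did not overlap, with the mutant between empty vector and wild type. The 2 empty vector values lay within each other's counting intervals.

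AspGTC23 was the smallest entry. It was at 134 and 125 RPM in empty vector, 182 and 168 RPM with METTL1-WT+WDR4, and 157 and 206 RPM with METTL1-Mut+WDR4. Both constructs lay above empty vector and overlapped each other, and mutant library 2 was the highest. Its counting interval was the widest of the family, up to 7.61% to either side in empty vector library 2, where its RPM corresponds to 676 reads.

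**Figure D1:**
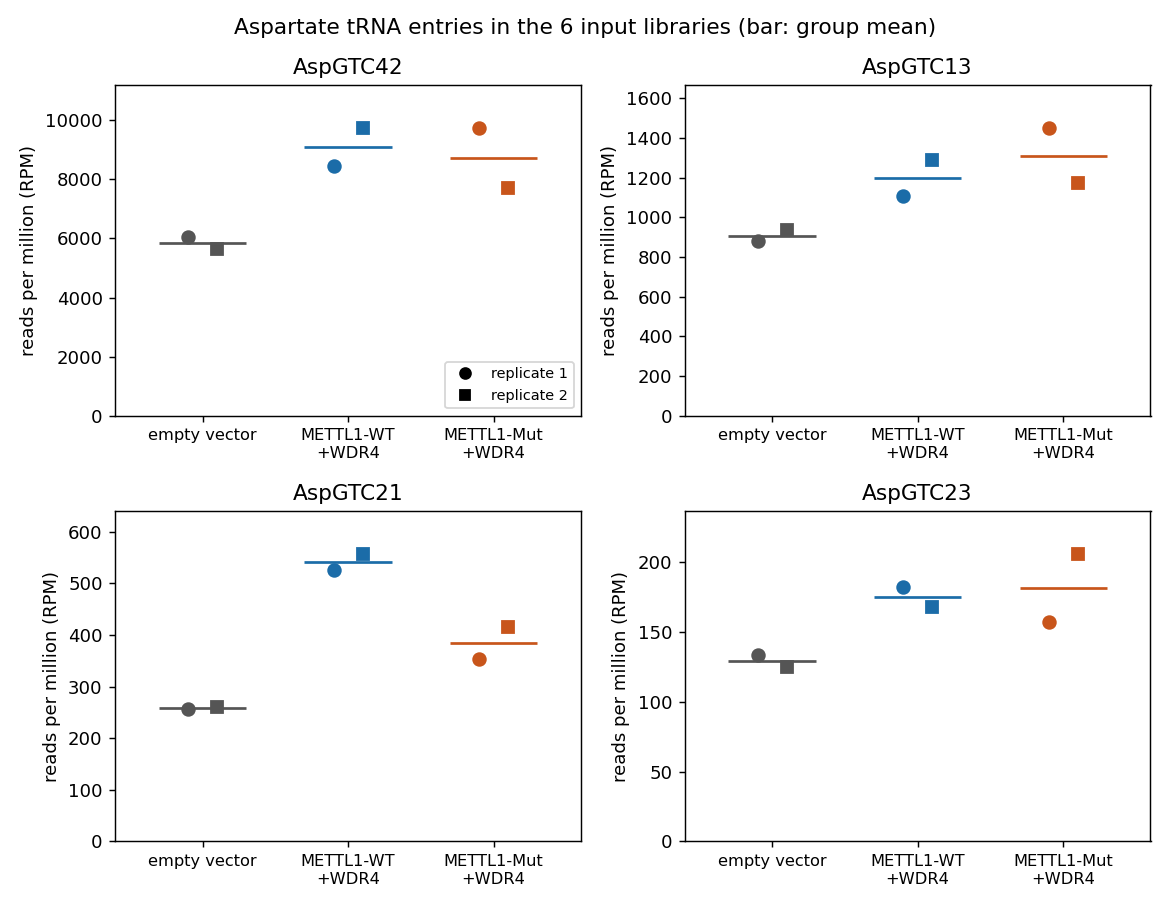
RPM of the 4 aspartate tRNA entries in each input library, 1 panel per entry with its own axis from 0; points are libraries and bars group means. In each panel the 4 METTL1 libraries lie above both empty vector libraries, and only for AspGTC21 do the 2 constructs separate, at 526 and 557 against 354 and 416 RPM.

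The 16 RefSeq genes share a length of 72 bases. If the entries stand for these genes, their RPM values can be ordered without a length correction. The order AspGTC42, AspGTC13, AspGTC21, AspGTC23 was the same in all 6 libraries, and no neighbours overlapped. The RPM of AspGTC42 was 6.02 to 7.63 times that of AspGTC13. That of AspGTC13 was 2.11 to 4.09 times that of AspGTC21, and that of AspGTC21 was 1.91 to 3.32 times that of AspGTC23. These ratios varied between libraries, so none of the entries is a scaled copy of another.

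Summed over the 4 entries, aspartate tRNA took 0.731% and 0.695% of the reads summed over tRNA entries in the empty vector libraries. It took 1.03% and 1.17% with METTL1-WT+WDR4 and 1.17% and 0.948% with METTL1-Mut+WDR4. Both constructs lay wholly above empty vector and overlapped each other.

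On the log2(RPM + 1) scale, where 1 is the pseudocount, the family sum was 0.62 higher with METTL1-WT+WDR4 than in empty vector, or 1.54-fold. Single pairs of libraries, 1 from each group, gave differences from 0.49 to 0.76. With METTL1-Mut+WDR4 it was 0.56 higher, or 1.48-fold, with pairs from 0.37 to 0.75. The SD between replicates on this scale was 0.052 for empty vector, 0.14 for METTL1-WT+WDR4 and 0.21 for METTL1-Mut+WDR4. The median over all 301 entries was 0.16 with METTL1-WT+WDR4 and 0.094 with METTL1-Mut+WDR4. The 2 comparisons share their empty vector libraries.

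By entry, the log2 difference between METTL1-WT+WDR4 and empty vector was 1.07 for AspGTC21, 0.64 for AspGTC42, 0.43 for AspGTC23 and 0.40 for AspGTC13. Against empty vector the mutant gave a narrower range, from 0.47 for AspGTC23 and 0.52 for AspGTC13 to 0.57 for AspGTC42 and AspGTC21. With METTL1-WT+WDR4, 4 of 4 entries had both libraries above both empty vector libraries, as did 49.5% of all entries. With METTL1-Mut+WDR4 it was also 4 of 4, beside 32.2% of all entries. Nothing is read from these counts, since the family was chosen on them.

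Leaving out mutant library 1 lowered the mutant's family difference from 0.56 to 0.41, and leaving out mutant library 2 raised it to 0.71. Without the large entry AspGTC42, the sum of the 3 smaller entries was 1270 and 1321 RPM in empty vector. It was 1818 and 2012 RPM with METTL1-WT+WDR4 and 1961 and 1794 RPM with METTL1-Mut+WDR4. The log2 differences of this sum from empty vector were 0.56 and 0.53, against 0.62 and 0.56 for all 4 entries.

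**Figure D2:**
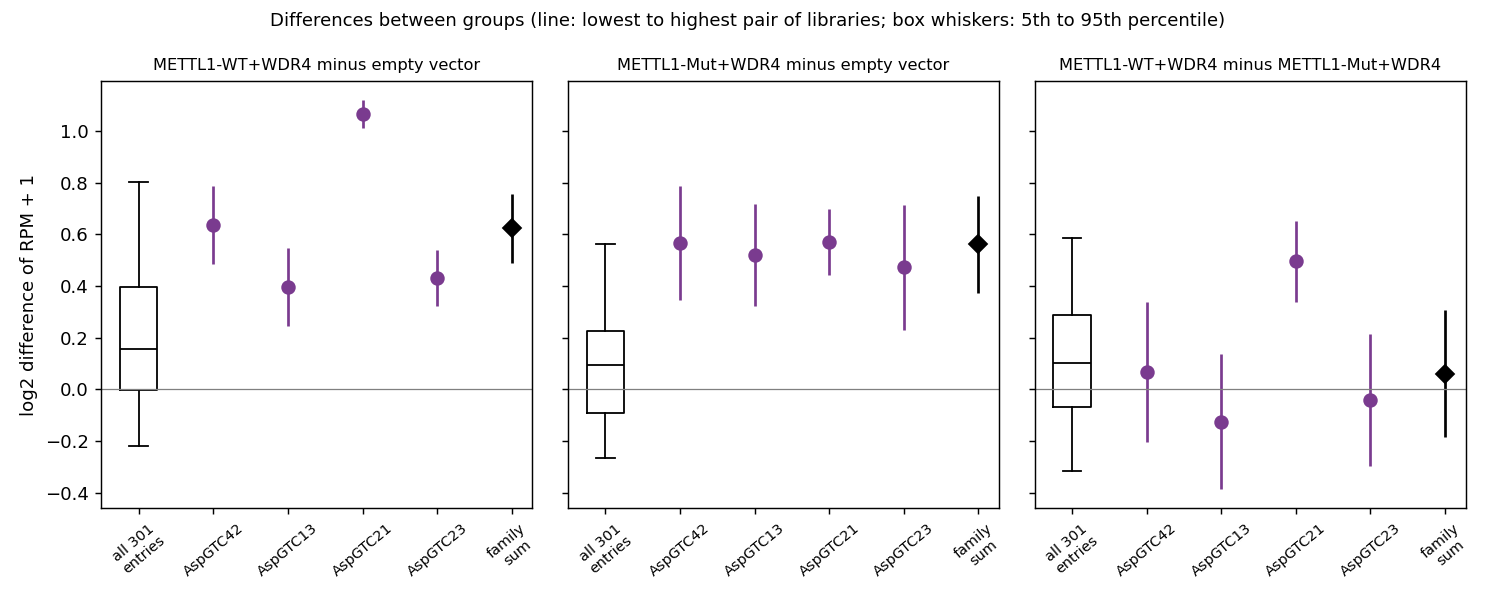
Log2 differences of RPM + 1 between groups for the 4 aspartate entries and their sum; points are differences of group means and lines run from the lowest to the highest difference between single libraries of the 2 groups. The box shows all 301 entries (median, quartiles, whiskers at the 5th and 95th percentile). In the right panel AspGTC21, at 0.50, is the only entry whose line does not cross 0.

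Wild-type and mutant METTL1 were then compared directly, a contrast that had not been used to choose the family, although its 4 libraries also enter the differences above. The aspartate family sum stood at 11009 ± 1029 RPM with METTL1-WT+WDR4 and 10589 ± 1563 RPM with METTL1-Mut+WDR4 (SD, n = 2 libraries each). The log2 difference was 0.061 (SE 0.11, limma BH-adjusted p = 0.812 over 54 anticodon families). Its 95% interval, from −0.16 to 0.29, allows a wild-type level from 0.893 to 1.22 times the mutant level. That interval rests on a spread pooled over all families. With 2 libraries a group, the family's own pooled SD of 0.18 would be its SE, so the interval may be too narrow. Single pairs of libraries gave differences from −0.19 to 0.31. The difference was within the spread between replicates, and its sign turned to −0.068 when libraries were centred on the leucine, serine and selenocysteine entries. That centring moved all differences between wild type and mutant by −0.13. In the family fit, 3.7% of the families were called higher and 1.85% lower at a limma BH-adjusted p under 0.05.

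Of the 4 aspartate entries, AspGTC21 passed the test over entries and was higher with METTL1-WT+WDR4, at 542 ± 21.6 against 385 ± 43.5 RPM (SD, n = 2). Its log2 difference was 0.50 (SE 0.13, 95% interval 0.24 to 0.76, limma BH-adjusted p = 0.0032 over 301 entries). Both wild-type libraries lay above both mutant libraries. Thus 1 of 4 entries was called higher and 0 lower, where 11.3% of all entries were called higher and 3.65% lower. No other aspartate entry had an unadjusted limma p under 0.05, and 25.9% of all entries did. The spread used by limma was pooled over entries, which may share reads, and gave the test 602 degrees of freedom. The pooled SD of the AspGTC21 replicates was 0.12, close to the limma SE of 0.13, but it rests on 2 libraries a group. A test on that SD alone was not run, so the interval may be too narrow and the p-value too low. With 2 libraries a group an exact permutation test cannot give a p below 0.333.

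The AspGTC21 call was lost under centring on the leucine, serine and selenocysteine entries (0.37, limma BH-adjusted p = 0.218). Among the alternatives that kept all libraries, only that centring ended it. The call was also lost without METTL1-WT+WDR4 library 1 (0.54) or library 2 (0.45), where the spread comes from the mutant libraries alone. The difference was 0.38 without mutant library 1 and 0.61 without mutant library 2. Over all 12 alternatives it was positive, from 0.37 to 0.61.

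The other 3 entries did not pass. AspGTC42 had a log2 difference of 0.068 (95% interval −0.22 to 0.36, limma BH-adjusted p = 0.797). AspGTC13 was at −0.12 (interval −0.36 to 0.11, limma BH-adjusted p = 0.516), and AspGTC23 at −0.041 (interval −0.34 to 0.26, limma BH-adjusted p = 0.855). These intervals use the spread pooled over entries, with SEs of 0.15 for AspGTC42, 0.12 for AspGTC13 and 0.15 for AspGTC23. The pooled SDs of their own replicates were larger, at 0.20, 0.19 and 0.20, so the intervals may be too narrow. With mutant library 1 left out the AspGTC42 difference was 0.24, and with mutant library 2 left out that of AspGTC13 was −0.28. In such fits the replicate spread comes from the wild-type libraries alone, so their p-values are not given. The mutant replicates went opposite ways within the family, with AspGTC42 and AspGTC13 higher in library 1 and AspGTC21 and AspGTC23 higher in library 2.

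The make-up of the family can be read from each entry's share of aspartate reads. AspGTC42 took 81.0% to 83.2% of them in the 6 libraries, a range without order by group. AspGTC21 took 3.50% and 3.74% in empty vector, 5.12% and 4.75% with METTL1-WT+WDR4, and 3.03% and 4.38% with METTL1-Mut+WDR4. Both wild-type libraries were the highest, and the mutant libraries lay on either side of empty vector.

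AspGTC13 took 12.0% and 13.5% in empty vector, 10.8% and 11.0% with METTL1-WT+WDR4, and 12.4% in each of the mutant libraries. Here the wild-type libraries were the lowest. The share of AspGTC23 ran from 1.34% to 2.17%, and both extremes were mutant libraries. Differences in share were not tested, for the reason given for 2 libraries a group.

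**Figure D3:**
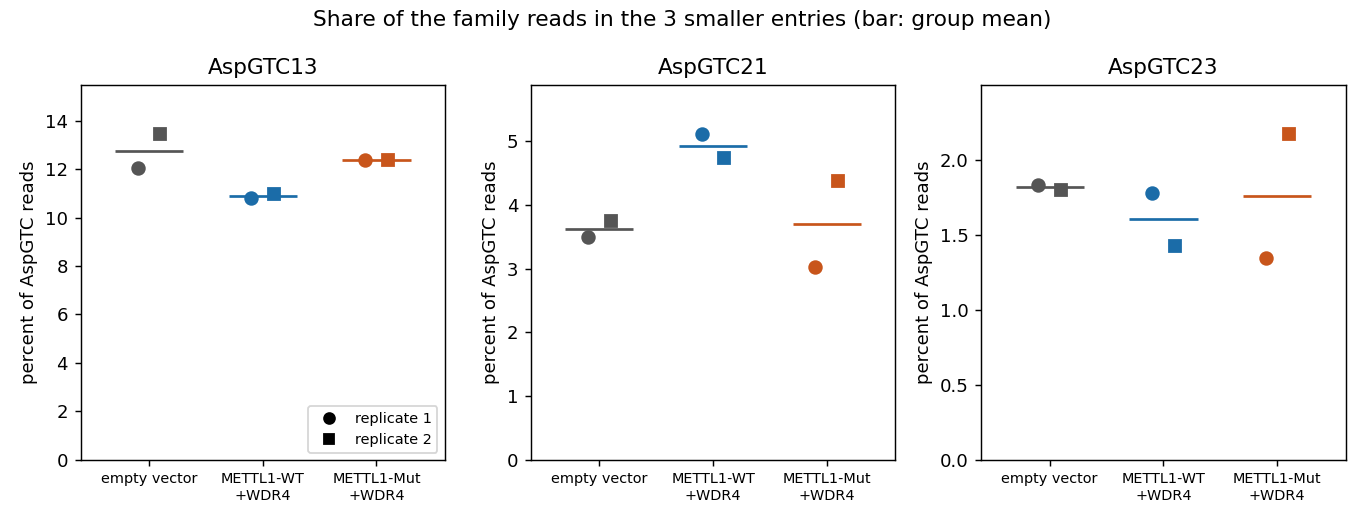
Share of all AspGTC reads in AspGTC13, AspGTC21 and AspGTC23 in each input library, in percent, 1 panel per entry with an axis from 0; bars are group means. In the wild-type libraries AspGTC21 is at 5.12% and 4.75%, above the other 4 libraries, and AspGTC13 at 10.8% and 11.0%, below them.

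Other tRNAs that share a feature with aspartate tRNA were set beside it by group. The glutamate tRNAs GluTTC and GluCTC carry the other acidic amino acid. GluTTC, summed over its 3 entries, was at 4909 and 4712 RPM in empty vector, 7302 and 7619 RPM with METTL1-WT+WDR4, and 6744 and 5419 RPM with METTL1-Mut+WDR4. GluCTC, with 7 entries, was at 5062 and 5320 RPM in empty vector, 6010 and 6000 RPM with METTL1-WT+WDR4, and 4892 and 4582 RPM with METTL1-Mut+WDR4. Thus the GluTTC sum, like the aspartate sum, lay above empty vector with both constructs, while GluCTC lay below empty vector with the mutant. By entry, the log2 differences with METTL1-WT+WDR4 and METTL1-Mut+WDR4 were 0.75 and 0.43 for GluTTC27 and 0.91 and 0.47 for GluTTC28. GluTTC15 was nearly level, at 0.080 and 0.0019.

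The RefSeq genes of both glutamate families are also 72 bases long. Aspartate reads amounted to 0.734 and 0.693 of all glutamate reads in empty vector. The ratio was 0.772 and 0.862 with METTL1-WT+WDR4 and 1.01 and 0.948 with METTL1-Mut+WDR4, so the 3 groups did not overlap and the mutant was highest. Between wild type and mutant GluTTC differed by 0.30 (SE 0.12, limma BH-adjusted p = 0.063 over 54 families) and GluCTC by 0.34 (SE 0.12, limma BH-adjusted p = 0.059), and neither passed. Whether the aspartate difference of 0.061 departs from these was not tested.

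Of the 10 glutamate entries, 9 lay above and 0 below empty vector with METTL1-WT+WDR4, with a median log2 difference of 0.37, beside 49.5% and 15% of all entries. With METTL1-Mut+WDR4 it was 4 above and 2 below, with a median of 0.049, beside 32.2% and 15.9% of all entries. Compared with the mutant, 7 lay higher and 0 lower with the wild type, with a median of 0.28. Over all entries, 43.2% lay higher and 15.3% lower with the wild type than with the mutant, with a median of 0.10.

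The other families with queuosine are AsnGTT, HisGTG and TyrGTA, with 17 entries. With METTL1-WT+WDR4, 6 of these entries lay above and 1 below empty vector (median 0.041), beside 49.5% and 15% of all entries. With METTL1-Mut+WDR4, 3 lay above and 6 below (median 0.058), beside 32.2% and 15.9% of all entries. The asparagine sum AsnGTT was at 8916 ± 164 RPM in empty vector, 8364 ± 415 RPM with METTL1-WT+WDR4 and 7297 ± 213 RPM with METTL1-Mut+WDR4 (SD, n = 2), so it was lower than empty vector with both constructs.

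HisGTG, the histidine family, was at 23120 ± 1913, 24252 ± 924 and 16967 ± 1141 RPM in the same order. It was higher with METTL1-WT+WDR4 than with METTL1-Mut+WDR4 (log2 difference 0.52, SE 0.11, limma BH-adjusted p = 0.00045). AsnGTT (0.20, limma BH-adjusted p = 0.25) and the tyrosine family TyrGTA (−0.032, limma BH-adjusted p = 0.94) did not pass in that contrast. The ratio of aspartate to asparagine reads, read only across libraries since the gene lengths differ (72 and 74 bases), was 0.831 and 0.770 in empty vector, 1.27 and 1.36 with METTL1-WT+WDR4, and 1.57 and 1.33 with METTL1-Mut+WDR4.

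The other DNMT2 families, GlyGCC and ValAAC, have 12 entries. With METTL1-WT+WDR4, 3 lay above and 1 below empty vector (median 0.11), beside 49.5% and 15% of all entries. With METTL1-Mut+WDR4, 1 lay above and 1 below (median −0.051), beside 32.2% and 15.9% of all entries. Their family sums overlapped empty vector with both constructs. Between wild type and mutant neither passed, at 0.22 for GlyGCC (limma BH-adjusted p = 0.17) and 0.080 for ValAAC (limma BH-adjusted p = 0.758).

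**Figure D4:**
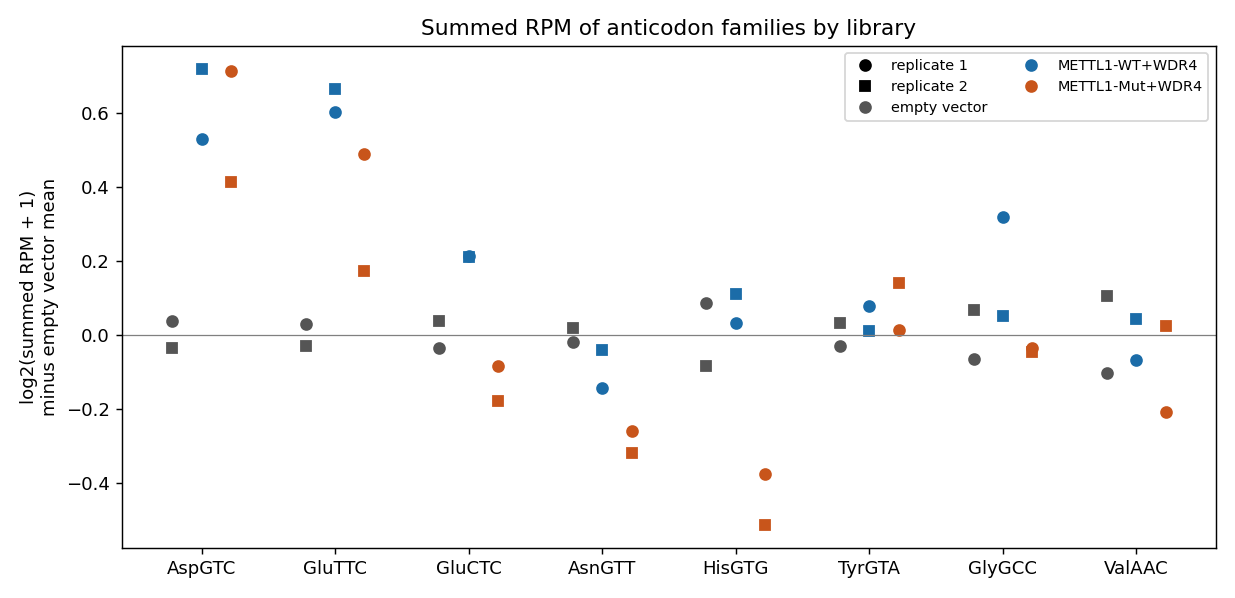
Summed RPM of AspGTC and of the families set beside it, as log2(RPM + 1) minus the mean of the 2 empty vector libraries; each point is an input library. AspGTC and GluTTC lie above empty vector with both constructs, GluCTC with METTL1-WT+WDR4 alone, AsnGTT lies below it with both, and HisGTG with METTL1-Mut+WDR4.

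The entries most like the aspartate sum were sought over the 6 libraries, by the root mean square distance between profiles of log2(RPM + 1) centred on their own means. Of 239 other entries that averaged 10 RPM or more, ThrAGT131, a threonine entry, was nearest at 0.089 log2 units, against a median of 0.30. It stood at 29.1 and 27.2 RPM in empty vector, 46.1 and 45.0 RPM with METTL1-WT+WDR4, and 48.6 and 42.9 RPM with METTL1-Mut+WDR4. GluTTC27 (0.11), LysCTT8 (0.11), LysCTT56 (0.12) and LysCTT12 (0.12) followed. By the same measure AspGTC42 was 0.015 from the sum it dominates, AspGTC13 0.11, AspGTC23 0.23 and AspGTC21 0.26. Thus ThrAGT131, picked as the nearest of 239, lay nearer to the aspartate sum than 3 of the 4 aspartate entries. Its counting error was not computed. It has fewer reads than AspGTC23, whose counting interval reached 7.61% to either side, so its order beside AspGTC13 is uncertain. The family of ThrAGT131 did not follow aspartate. ThrAGT summed to 39392 and 36211 RPM in empty vector, 38788 and 37082 RPM with METTL1-WT+WDR4, and 30637 and 30427 RPM with METTL1-Mut+WDR4.

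Among 48 other families of at least 10 RPM, GluTTC (0.12), GlyTCC (0.17) and SeCTCA, the selenocysteine tRNA (0.17), were nearest, against a median distance of 0.31. All 3 lay above empty vector with both constructs and higher with the wild type than with the mutant. These distances describe 6 libraries that share a table and 3 groups.

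Gene number was set beside abundance last. The 16 aspartate genes are 3.98% of the 402 RefSeq tRNA genes in 48 families that match a family of the tables, and only 2 of these families have more genes. In empty vector the aspartate sum was 99.1 RPM per base of gene length, rank 31 of the 48 families, against a family median of 121. The lengths are those listed for the genes, with family means from 71 bases for GlyGCC to 106 for LeuCAA. Whether reads grow with that length was not tested, so ranks per base hold only if they do. Per gene and base it was 6.19 RPM, the ninth lowest, against a median of 20.4. GluCTC, at 6.01 RPM per gene and base, and GluTTC, at 8.35, were its neighbours in this order. Which of the 16 genes contributed reads was not examined.

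**Figure D5:**
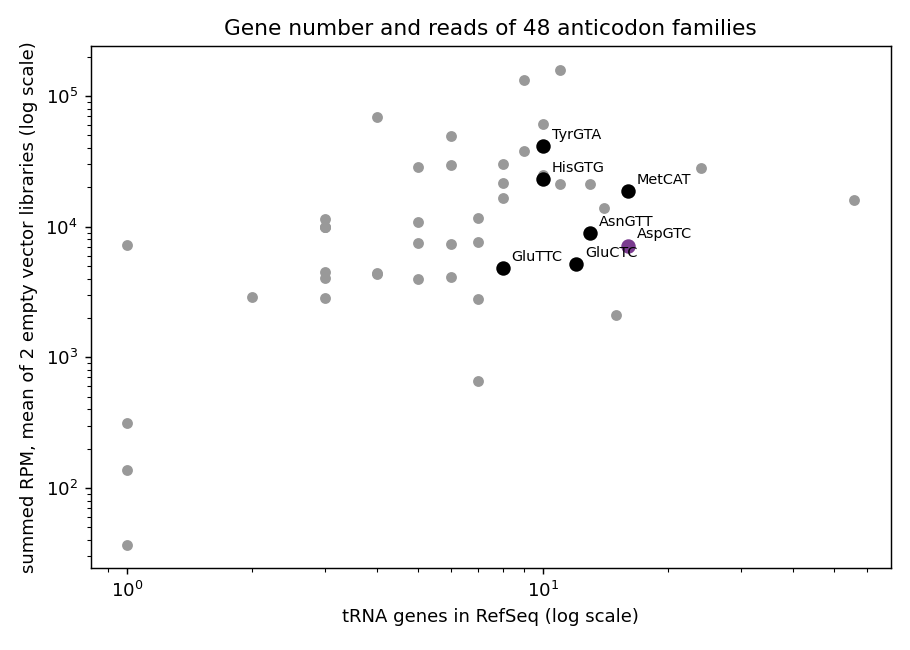
Number of RefSeq tRNA genes (log axis) and summed RPM in empty vector (mean of 2 libraries, log axis) for 48 anticodon families, each point a family. AspGTC, with 16 genes, lies lower than MetCAT, which also has 16 genes and 18732 RPM against 7134 RPM for AspGTC, with no length correction.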

How the data were processed

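The 6 input libraries used, 2 per group, come from 2 deposited tables with 301 tRNA entries each and the same empty vector columns. The submitters' processing notes name bedtools, Bowtie, Trim Galore and mm10. Their versions and the handling of multi-mapping reads are not given in the sources used here. Abundance is, as deposited, in RPM (reads per 1000000 over tRNA entries). The authors also deposited a fold change (ratio of mean RPM), its log2 value, an unadjusted p-value and its −log10. The deposited ratios, which equal the ratios of mean RPM, and p-values are not reported. Each RPM corresponds to a whole number of reads, within 0.01, which gave the implied totals behind the counting intervals. Too few low values exist to establish these reads, so no count test was run, and the counting intervals hold only if the implied reads are right.

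Differences used log2(RPM + 1) without a filter. METTL1-WT+WDR4 and METTL1-Mut+WDR4 were compared in limma 3.58.1 under R 4.3.3 with a variance trend, on 301 entries and on RPM summed over 54 anticodon families. P-values were two-sided, adjusted by Benjamini-Hochberg (BH) over all features, and called under 0.05. The fit was tested on simulated data with independent noise for each feature, so reads shared between entries were not mimicked. There 64.7% of entries changed 1.5-fold were recovered, and 0.62% of unchanged entries were called. For families these were 75% and 1.82%. Gene names, lengths and positions come from the RefSeq table of GRCm38.p6.

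All AspGTC entries are named, then the 5 entries and 3 families nearest in profile, and the listed families. The members and lists were chosen with earlier results of these data known. Alternatives were pseudocounts of 0.1 and 10, a minimum mean of 10 RPM, 2 centrings, each replicate left out, a replicate block, all 3 groups in a common fit, and no variance trend. The 5 cleaved libraries are not analysed here.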

Additional observations from a re-analysis of the deposited data

Results flagged for a closer look

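AspGTC21 was the only aspartate entry whose level differed between the constructs by the test of that difference, with a log2 difference between METTL1-WT+WDR4 and METTL1-Mut+WDR4 of 0.50 (SE 0.13, limma BH-adjusted p = 0.0032). Both wild-type libraries were above both mutant libraries. The p-value rests on a spread pooled over entries and may be too low, since a test on the replicates of AspGTC21 alone was not run. Over all 301 entries, 11.3% were called higher and 3.65% lower. Centring on the leucine, serine and selenocysteine entries ended the call, at 0.37 (limma BH-adjusted p = 0.218). Leaving out wild-type library 1 or 2 also ended it, with the difference at 0.54 and 0.45. The spread in those fits comes from the mutant libraries alone. The RPM of AspGTC13 divided by that of AspGTC21 was 3.44 and 3.59 in empty vector, 2.11 and 2.31 with METTL1-WT+WDR4, and 4.09 and 2.82 with METTL1-Mut+WDR4.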

How the results depend on the processing

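Against empty vector, the family difference was 0.58 to 0.62 for METTL1-WT+WDR4 and 0.52 to 0.65 for METTL1-Mut+WDR4 under the other pseudocounts, the minimum RPM and the 2 centrings, where the 40 values for single entries also moved by less than the SD between replicates. With single libraries left out it was 0.53 to 0.72 and 0.41 to 0.71. Between the constructs the family difference of 0.061 turned to −0.068 under centring on the leucine, serine and selenocysteine entries and ran from −0.090 to 0.21 when single libraries were left out; it passed in 0 of 12 alternatives. That centring left 0 aspartate entries, 0 higher and 2 lower entries called, against 1, 34 and 11. Left-out libraries gave 0 to 2 aspartate entries, 1 to 87 higher and 2 to 43 lower entries; without METTL1-WT+WDR4 library 1 or 2 there were 2 or 1 higher, and without mutant library 1 or 2 there were 79 or 87. The lone library of a group is then assumed to vary like the others. The replicate block gave 20 higher and 5 lower entries; AspGTC21 kept its call (limma BH-adjusted p = 0.0206), and the family difference stayed at 0.061. The deviations of same-numbered libraries correlated at −0.054 between the constructs. Empty vector gave 0.093 with METTL1-WT+WDR4 and −0.12 with METTL1-Mut+WDR4. These correlations cannot show whether same-numbered libraries shared a culture or batch. For single entries, AspGTC42 turned to −0.060 under the leucine, serine and selenocysteine centring. Leaving out libraries gave −0.10 to 0.24 for AspGTC42, −0.28 to 0.029 for AspGTC13 and −0.24 to 0.15 for AspGTC23. Why these differences moved was not tested. The planned edgeR test on whole reads was not run. For AspGTC42 counting error is small beside the replicate spread, so the 2 libraries a group limit its precision more than depth does, whereas the AspGTC21 empty vector libraries differ by less than counting error.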
